A study of Mus musculus with 8 samples.

Results

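The erythroid transcription regulators Klf1, Gata1, Zfpm1, Gfi1b, Tal1, Lmo2 and Nfe2 and the erythropoietin receptor gene Epor were followed in RNA from sorted mouse blood stem and progenitor cells with and without Tet1. These 8 genes were taken by symbol from 2 deposited tables of raw counts, which list 19685 genes for long-term hematopoietic stem cells (LT-HSC) and 18904 genes for multipotent progenitors (MPP). Symbols matched for 7 of the 8, called members below, in each table, and all 7 passed the filter on low counts in every comparison. Zfpm1, which encodes the Gata1 cofactor Fog1, was not analysed here.

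The 8 libraries fall into 4 groups of 2, namely KO and WT LT-HSC and KO and WT MPP. Cells of all 4 groups were flow sorted from bone marrow of mice labelled CD57BL/6, 20 weeks after transplant with Tet1 KO or WT marrow, at an age of 6 months. Each RNA came from 10000 cells in the LT-HSC groups and 100000 in the MPP groups, so population and cell number cannot be told apart. KO donors are labelled as lacking Tet1, a dioxygenase that oxidises 5-methylcytosine in DNA. The part of Tet1 removed, the sort gates, the share of host cells left in the marrow, and whether replicates came from separate mice are details not given in the sources at hand here, so p-values measure the spread between these libraries, which may be technical.

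Gata1 is a zinc finger factor that red cell and megakaryocyte genes share, and it sits on DNA in a complex with the basic helix-loop-helix factor Tal1 and the bridging protein Lmo2. Klf1 binds CACCC boxes and switches on hemoglobin and red cell membrane genes, while Gfi1b represses its targets through chromatin enzymes such as Kdm1a and Nfe2 drives late megakaryocyte and globin genes. Epor binds erythropoietin and signals through Jak2 and Stat5 in red cell progenitors.

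In LT-HSC, 4 of the 7 genes were called higher in KO than in WT libraries: Klf1, Epor, Lmo2 and Gata1. Among all genes tested there, 22.5% were called higher. Klf1 was the member with the largest difference, with 664 and 691 reads counted in KO libraries against 42 and 60 in WT libraries. Tal1, Gfi1b and Nfe2, which LT-HSC of both genotypes carried at high levels, did not pass the test. In MPP, Klf1 alone of the 7 passed it, with a smaller fold change than in LT-HSC, beside 4.74% of all genes called higher.

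The stretches of 250 bases just upstream of the RefSeq start site (GRCm38.p6) are shown for 3 members that were higher in LT-HSC KO cells and had an entry, Klf1, Gata1 and Epor, and for Gfi1b, which did not pass the test. They let the letters that Gata1 and Klf1 are known to bind be read beside the counts. Each runs 5′ to 3′ on the gene's own strand, and capitals mark GATAA or its reverse complement TTATC, and CACCC or its reverse complement GGGTG.
Klf1, chr8:84901732-84901981, plus strand: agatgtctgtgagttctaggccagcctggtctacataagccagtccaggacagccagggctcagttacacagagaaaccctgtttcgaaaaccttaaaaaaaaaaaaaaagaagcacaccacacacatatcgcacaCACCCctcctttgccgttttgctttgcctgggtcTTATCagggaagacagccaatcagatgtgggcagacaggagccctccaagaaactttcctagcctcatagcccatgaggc
Gata1, chrX:7967911-7968160, minus strand: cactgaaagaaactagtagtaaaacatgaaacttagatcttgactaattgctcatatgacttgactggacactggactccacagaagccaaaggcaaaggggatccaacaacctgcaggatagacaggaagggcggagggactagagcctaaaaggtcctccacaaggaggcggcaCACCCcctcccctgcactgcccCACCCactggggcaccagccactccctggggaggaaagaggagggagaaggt
Epor, chr9:21963577-21963826, minus strand: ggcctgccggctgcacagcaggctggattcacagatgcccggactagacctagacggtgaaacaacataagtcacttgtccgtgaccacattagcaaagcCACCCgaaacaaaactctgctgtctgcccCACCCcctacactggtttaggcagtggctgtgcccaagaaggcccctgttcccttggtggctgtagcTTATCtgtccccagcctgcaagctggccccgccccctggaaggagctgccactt
Gfi1b, chr2:28621983-28622232, minus strand: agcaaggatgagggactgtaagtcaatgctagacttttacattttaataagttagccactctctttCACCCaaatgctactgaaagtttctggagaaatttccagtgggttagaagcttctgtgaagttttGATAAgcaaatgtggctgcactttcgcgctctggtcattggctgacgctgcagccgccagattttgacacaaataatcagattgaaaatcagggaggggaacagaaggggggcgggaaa

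Counting the base before the start as -1, Klf1 holds TTATC from -80 and CACCC from -114. Epor holds TTATC from -54 and CACCC from -150 and -121. Gata1 holds CACCC from -74 and -52 and no GATAA or TTATC in this window. Gfi1b, whose counts did not pass the test, holds GATAA from -119 and CACCC from -184. Over both strands, GATAA occurred in 22.6% and CACCC in 52.0% of the 32851 mouse promoter windows of this length, and the capitals of these 2 motifs do not overlap. The E-box that Tal1 and its partners bind, CANNTG, occurred in 66.2% of those windows and in all 4 shown. Tal1 has 2 start sites, whose windows are not shown, and neither window holds CANNTG. Lmo2 and Nfe2 have no entry. A match is a description of the letters and not a measured binding site.

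Total counts were 4976459 to 5479731 per LT-HSC library and 11928659 to 12504581 per MPP library, so that 3 counts, taken as the floor, equal 0.547 to 0.603 CPM (a gene's counts scaled to the library total) and 0.24 to 0.251 CPM. Summed levels of 9 LT-HSC markers such as Slamf1, Procr and Hlf were 1334 and 1336 CPM in LT-HSC KO and 1953 and 1943 CPM in LT-HSC WT, against 484 to 512 CPM in the 4 MPP libraries. Of these markers, Hlf and Ly6a overlapped between the populations. The sum of the 5 MPP markers ran the other way, at 114 to 129 CPM in LT-HSC and 934 to 1051 CPM in MPP. Il12rb1 alone of the 5 was higher in LT-HSC, at 15.3 to 23 CPM against 6.37 to 12.6 CPM in MPP. Counts of Tet1 itself were 336 and 379 in the LT-HSC KO libraries against 332 and 428 in the WT ones, and 765 and 855 in the MPP KO libraries against 1207 and 1323 in the WT ones; whole-gene counts do not show which exons are present and so do not check the labels. The Y-linked genes Ddx3y, Eif2s3y, Kdm5d and Uty had 0 to 57 counts in KO libraries and 101 to 1002 counts in WT libraries, so the sex of the cells and the genotype cannot be told apart, also for Gata1, which lies on the X chromosome. Reads spread over long genes, taken as the median over 206 genes spanning more than 500 kb, were 0.451 and 0.384 counts per kb in LT-HSC KO against 0.0783 and 0.0699 in LT-HSC WT; the MPP KO libraries had 0.0925 and 0.105 and the MPP WT libraries 0.0843 and 0.0841. At that rate they make up 12.5% and 10.7% of Lmo2 counts in LT-HSC KO and 8.13% and 6.19% in LT-HSC WT, and at most 1.56% for each other member in any library.

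**Figure D1:**
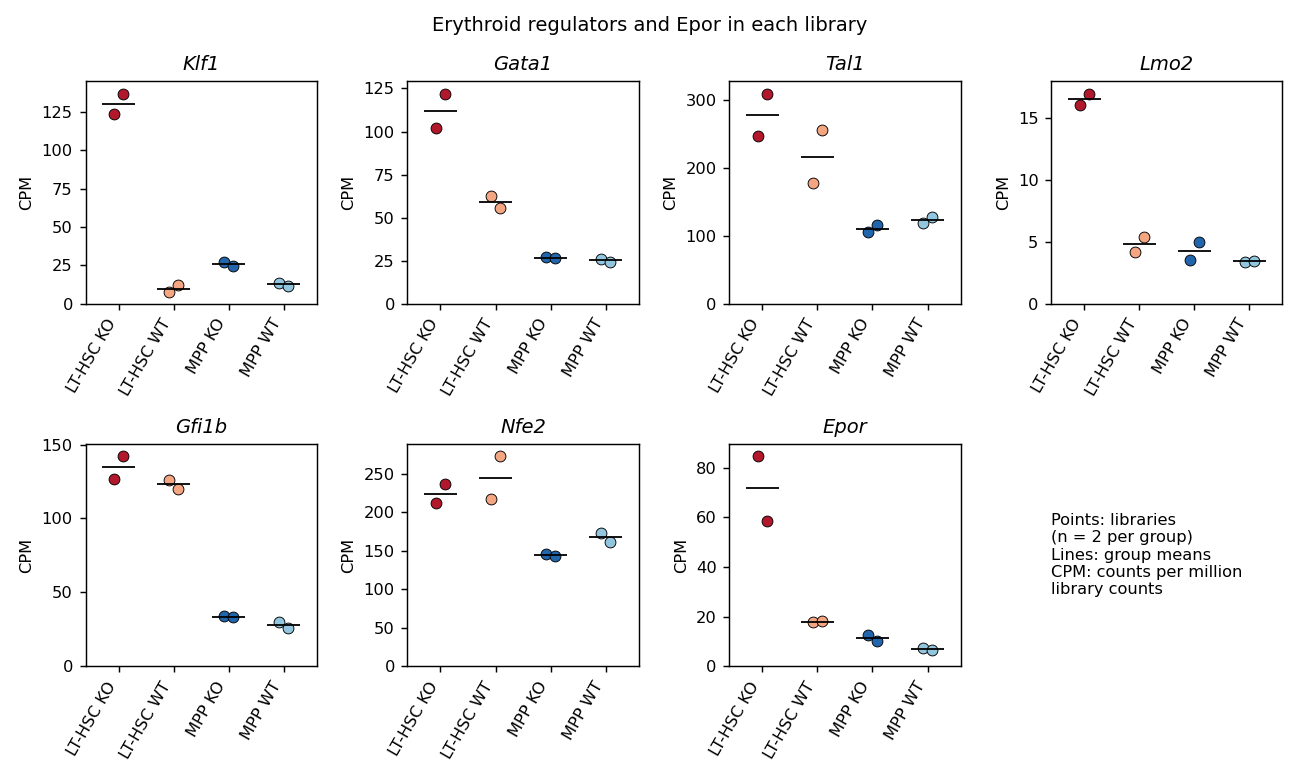
Level of each of the 7 genes in CPM (linear axis from 0) in the 8 libraries, with KO left of WT, for LT-HSC and then for MPP; points are libraries and bars the mean of 2. Klf1 stands at 124 and 137 CPM in LT-HSC KO and below 28 CPM in every other library, while Nfe2 spans a narrow range from 144 to 273 CPM.

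Klf1 (ENSMUSG00000054191, chr8:87425827-87429194 on mm9, plus strand) had 124 and 137 CPM in the LT-HSC KO libraries, against 7.66 and 12.1 CPM in the LT-HSC WT libraries. The groups are far apart, and the lower KO library is about 10 times the higher WT library. Its log2 fold change was 3.73 (SE 0.22, adjusted p = 7.87e-05, edgeR quasi-likelihood test with Benjamini-Hochberg adjustment over 15684 genes). In this comparison 4 of 7 members passed the test as higher, beside 22.5% of all genes tested, and 0 as lower, beside 10.9%; 0 members were lower at an unadjusted p under 0.05 or with DESeq2. The median log2 fold change of the 7 was 0.91, against 0.03 over all genes tested. In a bulk library, more cells of a type and more RNA per cell cannot be told apart.

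Gata1 (ENSMUSG00000031162, chrX:7536386-7555197, minus strand) had 102 and 122 CPM in LT-HSC KO, against 62.4 and 55.7 CPM in LT-HSC WT. The groups do not overlap, and the log2 fold change was 0.91 (SE 0.18, adjusted p = 0.0053 in edgeR). This call ends without LT-HSC KO replicate 2, where the fold change is 0.81 and the adjusted p 0.06.

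Tal1 (ENSMUSG00000028717, chr4:114729031-114744360, plus strand) had 247 and 309 CPM in LT-HSC KO, against 177 and 256 CPM in LT-HSC WT. The lower KO library lies under the higher WT library, and the log2 fold change of 0.37 (SE 0.19) did not pass, with an adjusted p of 0.175 in edgeR. Lmo2 (ENSMUSG00000032698, chr2:103798143-103822035, plus strand) had 16.1 and 17 CPM in LT-HSC KO, against 4.2 and 5.43 CPM in LT-HSC WT. These levels rest on 86 and 86 counts in KO and 23 and 27 in WT, the fewest of any member. Its log2 fold change was 1.78 (SE 0.33, adjusted p = 0.00444 in edgeR). Lmo2 overlaps the gene 4931422A03Rik on the minus strand (chr2:103807100-103868518), and no source used here says whether counting used strand, so reads of the 2 genes cannot be told apart and the Lmo2 values are uncertain.

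Gfi1b (ENSMUSG00000026815, chr2:28464970-28477502, minus strand) had 127 and 142 CPM in LT-HSC KO, against 126 and 120.2 CPM in LT-HSC WT. The groups lie next to each other without overlap, and the log2 fold change of 0.12 (SE 0.16 and adjusted p = 0.596 in edgeR) did not pass. Nfe2 (ENSMUSG00000058794, chr15:103078643-103088834, minus strand) had 212 and 237 CPM in LT-HSC KO, against 217 and 273 CPM in LT-HSC WT. Its libraries overlap, and the log2 fold change was -0.12 (SE 0.16, adjusted p = 0.597 in edgeR). With reads spread over gene spans subtracted it was 0.09.

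Epor (ENSMUSG00000006235, chr9:21763343-21768020, minus strand), the only receptor among the 8 genes, had 84.6 and 58.7 CPM in LT-HSC KO, against 17.7 and 18.3 CPM in LT-HSC WT. The 2 KO libraries differ from each other by more than any other pair for this gene, yet each is more than 3 times either WT library. Its log2 fold change was 2.00 (SE 0.25, adjusted p = 0.000911 in edgeR).

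Across the 7 genes, both LT-HSC KO libraries lay above both WT libraries for 5, the 4 called genes and Gfi1b; the same held for 36.4% of all genes tested. No member had both KO libraries below both WT libraries, which 29.4% of all genes did. The authors' deposited table gives log2 fold changes of 3.72 for Klf1, 2.00 for Epor, 1.78 for Lmo2 and 0.91 for Gata1 in LT-HSC, with false discovery rates of 2.25e-21, 7.82e-08, 5.14e-05 and 0.0154.

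In MPP, Klf1 had 27.3 and 24.8 CPM in KO libraries, against 13.6 and 11.8 CPM in WT libraries. The groups do not overlap, and the log2 fold change was 1.11 (SE 0.12, adjusted p = 0.0127 in edgeR over 14902 genes). Klf1 was the 1 of 7 members that passed as higher, beside 4.74% of all genes tested, and 0 passed as lower, beside 2.46%. At an unadjusted p under 0.05 there were 3 higher and 0 lower members, and with DESeq2 1 and 0. The Klf1 call ends without MPP WT replicate 1 (1.2, adjusted p = 0.296), without MPP WT replicate 2 (1.02, adjusted p = 0.281) and without MPP KO replicate 1 (1.05, adjusted p = 0.061), each in edgeR. Without either MPP WT library, 0 genes of any kind passed in this comparison.

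Epor had 12.5 and 10.2 CPM in MPP KO, against 7.38 and 6.4 CPM in MPP WT. Its libraries do not overlap, but the log2 fold change of 0.80 (SE 0.17) missed the threshold, with an adjusted p of 0.0552 in edgeR. The authors' deposited table gives 0.78 with a false discovery rate of 0.0499 for it. Gfi1b, at 34.1 and 33.2 CPM in MPP KO against 30.3 and 25.7 CPM in MPP WT, had a log2 fold change of 0.34 (SE 0.11 and adjusted p = 0.131 in edgeR). Gata1 was nearly level, at 27 and 26.4 CPM in MPP KO against 25.9 and 24.4 CPM in MPP WT, with a log2 fold change of 0.16 (SE 0.09 and adjusted p = 0.323 in edgeR).

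Lmo2 stood at 3.52 and 5 CPM in MPP KO against 3.35 and 3.49 CPM in MPP WT, with a log2 fold change of 0.39 (SE 0.25 and adjusted p = 0.389 in edgeR). For Tal1 the values were 106 and 115 CPM in MPP KO against 119 and 127 CPM in MPP WT, a log2 fold change of -0.07 (SE 0.08 and adjusted p = 0.635). Nfe2 had 146 and 144 CPM in MPP KO against 173 and 162 CPM in MPP WT, a log2 fold change of -0.13 (SE 0.07 and adjusted p = 0.292). In CPM, both KO libraries lay above both WT libraries for 5 of 7 members, beside 20.9% of all genes tested, and below them for 2, Tal1 and Nfe2, beside 37.8%.

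**Figure D2:**
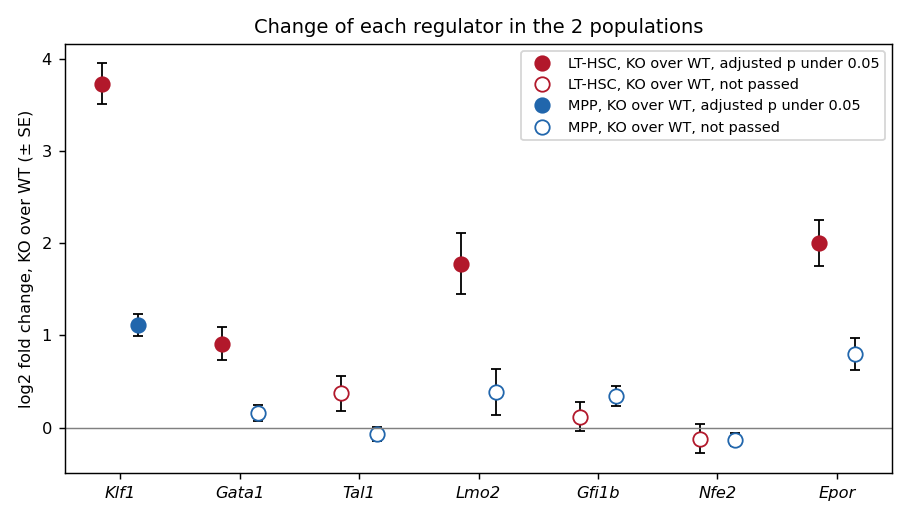
Log2 fold change of KO over WT for each of the 7 genes in LT-HSC and in MPP, fitted with edgeR; bars are the standard error. Klf1 stands at 3.73 in LT-HSC and 1.11 in MPP, Epor at 2.00 and 0.80, and Nfe2 at -0.12 and -0.13.

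Whether the KO and WT libraries differed by more in LT-HSC than in MPP was tested as an interaction over all 8 libraries and 16551 genes. The log2 fold change in LT-HSC minus that in MPP was 2.61 for Klf1 (SE 0.26, adjusted p = 0.00147 in edgeR), which passed in all 13 alternative settings. It was 1.38 for Lmo2 (SE 0.38, adjusted p = 0.0329), 1.19 for Epor (SE 0.31, adjusted p = 0.0275) and 0.74 for Gata1 (SE 0.19, adjusted p = 0.0289). These 4 of 7 passed as higher, beside 13.6% of all genes tested, and 0 as lower, beside 8.5%. At an unadjusted p under 0.05 the counts were 4 higher and 0 lower, and with DESeq2 3 and 0. Tal1 at 0.43 (adjusted p = 0.222), Gfi1b at -0.22 (adjusted p = 0.392) and Nfe2 at 0.00 (adjusted p = 0.994) did not pass.

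The interaction calls other than that of Klf1 lay close to the threshold. Each was lost in several of the fits that leave out 1 library, while the fold changes kept their sign in every alternative. Gata1 lost its call without LT-HSC KO replicate 2 (0.61, adjusted p = 0.0777 in edgeR) and without each MPP library (0.71 to 0.78, adjusted p 0.0865 to 0.103). For Lmo2 it ended with DESeq2 (adjusted p = 0.0542), without LT-HSC WT replicate 1 (1.23, adjusted p = 0.0684), without LT-HSC KO replicate 1 (1.42, adjusted p = 0.0727) or replicate 2 (1.34, adjusted p = 0.077), without MPP WT replicate 1 (1.42, adjusted p = 0.0884) or replicate 2 (1.35, adjusted p = 0.121) and without MPP KO replicate 1 (1.17, adjusted p = 0.11). That of Epor ended without any 1 library other than LT-HSC KO replicate 2, at 0.89 to 1.36 with adjusted p-values of 0.0507 to 0.111. Tal1 passed without LT-HSC WT replicate 2, at 0.67 with an adjusted p of 0.0447.

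Among WT cells, the regulators were higher in LT-HSC than in MPP, with Klf1 and Lmo2 as the exceptions. Gfi1b had 126 and 120.2 CPM in LT-HSC WT against 30.3 and 25.7 CPM in MPP WT, a log2 fold change of 2.16 (SE 0.15 and adjusted p = 0.000346 in edgeR over 14660 genes). Epor followed at 1.40 (SE 0.21, adjusted p = 0.00537), Gata1 at 1.25 (SE 0.16, adjusted p = 0.0032), Tal1 at 0.83 (SE 0.17, adjusted p = 0.0138) and Nfe2 at 0.56 (SE 0.13, adjusted p = 0.0206). Klf1 at -0.36 (SE 0.26, adjusted p = 0.324) and Lmo2 at 0.50 (SE 0.32, adjusted p = 0.27) did not pass. Thus 5 of 7 were called higher, beside 17.4% of all genes tested, and 0 lower, beside 16.9%, also at an unadjusted p under 0.05 and with DESeq2. Tal1 lost its call without MPP WT replicate 1 (0.76, adjusted p = 0.056), and Nfe2 without MPP WT replicate 1 (0.59, adjusted p = 0.155) or replicate 2 (0.52, adjusted p = 0.241).

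Among KO cells, all 7 members were higher in LT-HSC than in MPP, beside 27.2% of all 16150 genes tested, and 0 lower, beside 23.6%, also at an unadjusted p under 0.05 and with DESeq2. Epor had the largest log2 fold change, 2.51 (SE 0.22, adjusted p = 9.66e-05 in edgeR), then Klf1 at 2.18 (SE 0.13, adjusted p = 2.11e-05). Gata1 at 1.92, Gfi1b at 1.85, Lmo2 at 1.81 and Tal1 at 1.18 lay between, and Nfe2 was the smallest at 0.49 (SE 0.12, adjusted p = 0.0116). The Nfe2 call ended without LT-HSC KO replicate 2 (0.41, adjusted p = 0.0543), MPP KO replicate 1 (0.51, adjusted p = 0.0714) or MPP KO replicate 2 (0.51, adjusted p = 0.0829). Comparisons that share a group share its libraries, so these fold changes are not independent of those between KO and WT. In each comparison of LT-HSC with MPP, the interaction included, population goes with the number of cells per RNA, and these cannot be told apart.

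The order of the 4 groups was therefore not the same for every gene. Klf1 was highest in LT-HSC KO at 130.3 ± 8.91 CPM (SD, n = 2 here and below), then MPP KO at 26.1 ± 1.72, MPP WT at 12.7 ± 1.26 and LT-HSC WT at 9.86 ± 3.11, the last 2 not differing beyond their spread. In a fit to all 8 libraries, Klf1 was lower in LT-HSC WT than in MPP KO by a log2 fold change of -1.52 (SE 0.19 and adjusted p = 0.000504 in edgeR), in a step where 18.9% of all genes were called higher and 21.6% lower. Gata1 ran from LT-HSC KO at 112 ± 14.1 CPM through LT-HSC WT at 59 ± 4.77 to MPP KO at 26.7 ± 0.467 and MPP WT at 25.2 ± 1.04. Its LT-HSC WT level was above that of MPP KO by 1.04 (adjusted p = 0.000611), and the 2 MPP groups did not differ beyond their spread. For Gfi1b, LT-HSC KO at 135 ± 10.4 CPM and LT-HSC WT at 123 ± 4.07 lay above MPP KO at 33.7 ± 0.653 and MPP WT at 28 ± 3.3.

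Tal1 stood at 278 ± 43.5 CPM in LT-HSC KO, 216 ± 55.8 in LT-HSC WT, 111 ± 6.22 in MPP KO and 123 ± 5.52 in MPP WT. Nfe2 had 225 ± 17.9 CPM in LT-HSC KO, its highest mean of 245 ± 39.7 in LT-HSC WT, 145 ± 1.42 in MPP KO and 167 ± 8.15 in MPP WT. For Gfi1b, Tal1 and Nfe2 the step between LT-HSC and MPP passed, and in these fits neither step between genotypes did. Epor ran from LT-HSC KO at 71.6 ± 18.3 CPM to LT-HSC WT at 18 ± 0.413, MPP KO at 11.4 ± 1.58 and MPP WT at 6.89 ± 0.691. Its step from LT-HSC KO down to LT-HSC WT passed, and those from LT-HSC WT to MPP KO (0.56, SE 0.22, adjusted p = 0.0726 in edgeR) and from MPP KO to MPP WT did not. Lmo2 was at 16.5 ± 0.665 CPM in LT-HSC KO, with the other groups at 3.42 to 4.81 and no step among neighbours there that passed.

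Set against each other per kb of exon, the members changed places between genotypes in LT-HSC. In LT-HSC KO, Klf1 led with 85.1 CPM per kb, followed by Nfe2 at 75.1, Gfi1b at 73.5, Tal1 at 63.5, Gata1 at 45.8, Epor at 36 and Lmo2 at 7.63. In LT-HSC WT, Nfe2 led with 81.9 CPM per kb, Gfi1b had 67.2, Tal1 49.4, Gata1 24.2 and Epor 9.05, and Klf1 with 6.44 came just above Lmo2 with 2.22. The MPP groups kept Nfe2 first, at 48.4 CPM per kb in MPP KO and 56 in MPP WT. Exon lengths are those of GENCODE gene models and not of the annotation used for counting.

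Ratios of counts within a library do not depend on its total. Klf1 counts per Gata1 count were 1.22 and 1.12 in LT-HSC KO against 0.123 and 0.217 in LT-HSC WT; for MPP they were 1.01 and 0.942 in KO against 0.524 and 0.483 in WT. The ratio was thus higher in KO than in WT libraries of both populations. Counts also depend on gene length, here 1.53 kb of exon for Klf1 and 2.44 kb for Gata1. A ratio of 1 therefore does not mean equal levels. Klf1 and the ETS factor Fli1 are known to oppose each other between red cells and platelets, and Klf1 counts per Fli1 count were 0.654 and 0.681 in LT-HSC KO against 0.0221 and 0.03 in LT-HSC WT. In MPP they were 0.105 and 0.0929 in KO against 0.0511 and 0.0431 in WT. Gata1 takes over sites from Gata2 as red cells mature, and Gata1 counts per Gata2 count were 0.228 and 0.251 in LT-HSC KO against 0.0823 and 0.067 in LT-HSC WT; for MPP they were 0.168 and 0.174 in KO against 0.111 and 0.113 in WT.

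**Figure D3:**
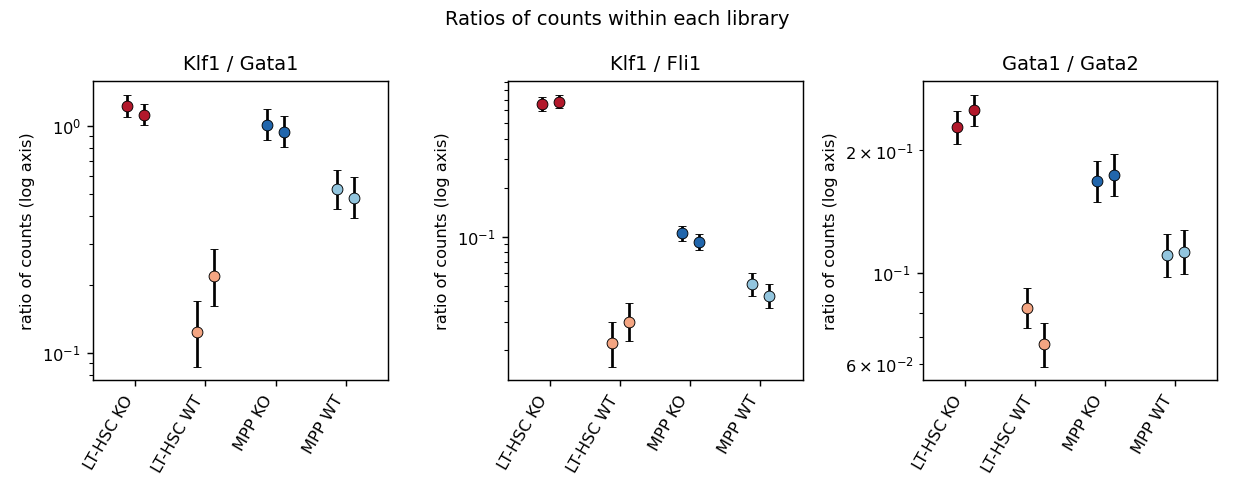
Ratio of counts of 2 genes within each library (log axis) for Klf1 over Gata1, Klf1 over Fli1 and Gata1 over Gata2, with KO left of WT in each population; points are libraries and bars exact 95% binomial intervals, which cover counting error only. Klf1 over Gata1 lies between 0.942 and 1.22 in the 4 KO libraries and between 0.123 and 0.524 in the 4 WT libraries.

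Likeness between profiles was measured as the root mean square difference of log2 CPM, each gene centred on its own mean over the 8 libraries, among 13238 genes. Among the members themselves, Tal1 and Nfe2 were nearest at 0.31, then Gata1 and Gfi1b at 0.36 and Gata1 and Tal1 at 0.40. Klf1 stood apart, at 0.78 from Lmo2, 0.85 from Epor and 1.44 from Nfe2. The genes nearest to Klf1 were Btnl10 at 0.15, Spna1 at 0.17, Myom3 at 0.18, Sphk1 at 0.19 and Col5a1 at 0.22. Of these, Spna1 encodes red cell alpha spectrin. It had 239.7 and 212 CPM in LT-HSC KO against 13.7 and 17.9 CPM in LT-HSC WT. In MPP, Spna1 had 37.1 and 36 CPM in KO against 19.2 and 20 CPM in WT. The collagen gene Col5a1 had 69.1 and 73.1 CPM in LT-HSC KO against 4.93 and 8.64 CPM in LT-HSC WT. Myom3 was at 0 CPM in both LT-HSC WT libraries, so its distance depends in part on the prior count of 2.

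Gata1 was nearest to Car2 at 0.11, a carbonic anhydrase gene of red cells, and next, of those reported here, to Fbln1 at 0.14. Car2 had 1643 and 1786 CPM in LT-HSC KO against 779 and 815 CPM in LT-HSC WT. Emcn lay at 0.18 from Gfi1b, and the nearest to Tal1 were Pld1 at 0.07, Pfkfb2 at 0.08 and Ddhd2 at 0.10. Lmo2 was nearest to Reps2 at 0.09, Armc9 at 0.10 and Slc26a8 at 0.10, and Nfe2 to Tmem201 at 0.06, Snx15 at 0.07 and Ikbke at 0.07. Epor was nearest to Clcn2 at 0.19, Ces2g at 0.20 and Stc2 at 0.21. Stc2 was at 0 CPM in both MPP WT libraries, so its distance also depends in part on the prior count. The 8 libraries behind these distances form 4 groups of 2.

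Among 25 partners and chromatin cofactors of Gata1, Tal1, Lmo2, Gfi1b and Nfe2, 0 were higher and 4 lower in LT-HSC KO, with 21 not called, beside 22.5% higher and 10.9% lower among all genes tested; at an unadjusted p under 0.05 there was 1 higher and 5 lower, and with DESeq2 0 and 4. Their median log2 fold change was -0.16, against 0.03 over all genes tested. Those lower were Lmo4, a relative of Lmo2 that also binds Ldb1, at -1.37 (SE 0.22, adjusted p = 0.00242 in edgeR), Kdm1a, the demethylase that Gfi1b recruits, at -0.78 (SE 0.16, adjusted p = 0.00669), and the small Maf partners of Nfe2, Mafk at -0.74 (SE 0.18, adjusted p = 0.0142) and Maff at -0.67 (SE 0.16, adjusted p = 0.0146). Ldb1, which holds the Gata1, Tal1 and Lmo2 complex together, had 304 and 259.9 CPM in LT-HSC KO against 282 and 262 CPM in LT-HSC WT and did not pass (adjusted p = 0.861). The E proteins that pair with Tal1, Tcf3 at 0.29 (adjusted p = 0.274) and Tcf12 at 0.32 (adjusted p = 0.166), did not pass either. Without LT-HSC KO replicate 1 or replicate 2, 1 partner was called lower, without LT-HSC WT replicate 2 there were 8, and with reads over gene spans subtracted there were 2. In MPP, 0 of 25 passed in edgeR and 0 with DESeq2, with 2 higher and 2 lower at an unadjusted p under 0.05 and a median of -0.02 against -0.01 over all genes.

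Of 21 other transcription factors of the branch point between red cells and megakaryocytes, 5 were higher and 6 lower in LT-HSC KO and 10 were not called, beside 22.5% higher and 10.9% lower among all genes tested. Their median log2 fold change was -0.17, against 0.03 over all genes. Higher were Klf3, a Klf1 relative and target, at 1.52 (SE 0.17, adjusted p = 0.000617 in edgeR), the cell cycle factors E2f4 at 0.88 (SE 0.20, adjusted p = 0.0097) and E2f2 at 0.83 (SE 0.17, adjusted p = 0.00584), the globin regulator Sox6 at 0.85 (SE 0.19, adjusted p = 0.00983), and Ikzf1. Lower were Fli1 at -0.94 (SE 0.15, adjusted p = 0.00247), Meis1 at -0.83 (SE 0.15, adjusted p = 0.0043) and Gata2 at -0.78 (SE 0.16, adjusted p = 0.00614), which are stem cell and megakaryocyte factors, with Etv6, Erg and Runx1. Gata2 had 445 and 484 CPM in LT-HSC KO against 759 and 831 CPM in LT-HSC WT, so its libraries do not overlap. The counts were 1 higher and 1 lower without LT-HSC KO replicate 1, 3 and 1 without LT-HSC KO replicate 2, and 3 lower with reads over gene spans subtracted. In MPP, Gata2 was the 1 gene called, at -0.45 (SE 0.07, adjusted p = 0.0335), and it did not pass without any 1 of the 4 MPP libraries.

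For 25 genes of Epo receptor signalling, 1 was higher and 7 lower in LT-HSC KO and 17 were not called, beside 22.5% higher and 10.9% lower among all genes tested. Their median log2 fold change was -0.42, against 0.03 over all genes. Fam132b, which encodes the Epo target erythroferrone, was higher at 2.41 (SE 0.55, adjusted p = 0.0104 in edgeR), on 33 and 53 counts in the KO libraries against 5 and 11 in the WT ones. Lower were the feedback inhibitors Socs3 at -0.94 (SE 0.17, adjusted p = 0.00355) and Socs2 at -0.61 (SE 0.20, adjusted p = 0.0443), the kinase Lyn at -0.75 (SE 0.19, adjusted p = 0.0153), the adaptor Grb2 at -0.74 (SE 0.16, adjusted p = 0.00865) and Podxl at -0.89 (SE 0.17, adjusted p = 0.00522), among others. Jak2, the kinase bound to the receptor, had 128 and 153 CPM in LT-HSC KO against 169.9 and 206 CPM in LT-HSC WT and did not pass (-0.42, adjusted p = 0.0779). The number called lower was 0 without LT-HSC KO replicate 1, 3 without LT-HSC KO replicate 2, 11 without LT-HSC WT replicate 2, 4 with DESeq2 and 4 with reads over gene spans subtracted, and Fam132b lost its call without LT-HSC KO replicate 2. In MPP, Socs2 was higher at 1.08 (SE 0.16, adjusted p = 0.0261) and Socs3 lower at -0.51 (SE 0.07, adjusted p = 0.025), and neither passed without any 1 of the 4 MPP libraries.

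Red cell genes known as targets of Klf1 or Gata1 were higher in LT-HSC KO with few exceptions: 26 of 27 passed as higher and 0 as lower, with Gypc at 0.12 not passing, and the median log2 fold change was 3.16; among all genes tested 22.5% were higher and 10.9% lower, with a median of 0.03. At an unadjusted p under 0.05 the counts were 26 and 0, and with DESeq2 25 and 0. The list holds the cell cycle genes Ccne1 and Cdkn2c and the lipid kinase gene Sphk1 as well as hemoglobin and membrane genes. Among the largest changes were those of the membrane skeleton genes Epb4.9 at 4.50 (SE 0.27, adjusted p = 8.2e-05 in edgeR) and Epb4.2 at 3.91 (SE 0.40, adjusted p = 0.000388), Trim10 at 4.36 (SE 0.42, adjusted p = 0.000307) and the blood group gene Ermap at 3.89 (SE 0.18, adjusted p = 3.95e-05). Tspo2 was counted 77 and 78 times in the KO libraries against 2 and 2 times in the WT libraries.

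In MPP, 15 of 27 red cell genes were called higher and 0 lower, beside 4.74% and 2.46% of all genes, with a median log2 fold change of 0.57 against -0.01; the counts were 20 and 0 at an unadjusted p under 0.05 and 14 and 0 with DESeq2. The ammonium channel gene Rhag led at 1.56 (SE 0.10, adjusted p = 0.00348 in edgeR), with 37.3 and 39.3 CPM in MPP KO against 13.2 and 14.1 CPM in MPP WT. Sphk1 at 1.38 (SE 0.17, adjusted p = 0.0168), Add2 at 1.29 (SE 0.13, adjusted p = 0.0106) and Ank1 at 1.24 (SE 0.10, adjusted p = 0.00727) came next. The number called higher was 0 without MPP WT replicate 1, 0 without MPP WT replicate 2, 5 without MPP KO replicate 1 and 7 without MPP KO replicate 2.

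Megakaryocyte and platelet genes known as targets of Gata1 or Nfe2 ran the other way in LT-HSC: 8 of 13 tested were lower in KO and 0 higher, beside 10.9% and 22.5% of all genes tested. Their median log2 fold change was -1.16, against 0.03 over all genes, with 9 lower and 0 higher at an unadjusted p under 0.05 and 8 and 0 with DESeq2. Gp1bb at -2.35 (SE 0.25, adjusted p = 0.000495 in edgeR) and Itga2b at -1.47 (SE 0.22, adjusted p = 0.002) encode platelet receptor chains, and Treml1 was lower at -2.11 (SE 0.30, adjusted p = 0.00153). Vwf, also a stem cell marker, was lower at -1.16 (SE 0.17, adjusted p = 0.00196). In MPP, 1 of 13 was higher and 1, Selp, was lower at -0.82 (SE 0.09, adjusted p = 0.0125 in edgeR), and neither passed without any 1 of the 4 MPP libraries.

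**Figure D4:**
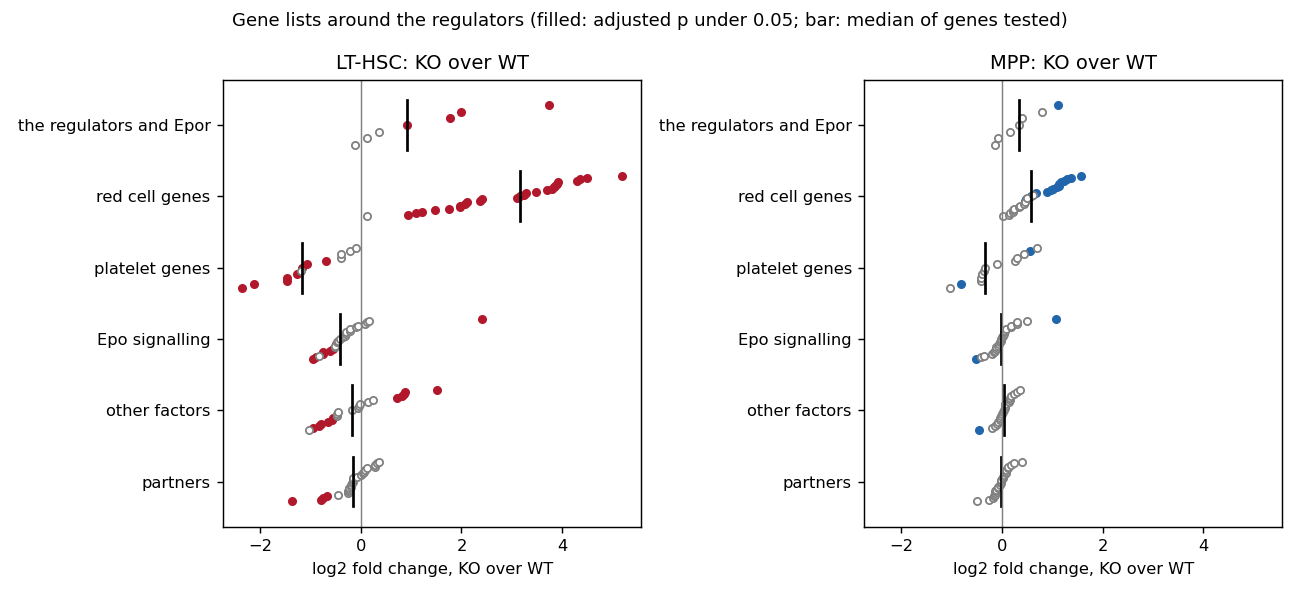
Log2 fold change of KO over WT for each tested gene of the members and the 5 gene lists, in LT-HSC and in MPP; each point is a gene, filled where its adjusted p is under 0.05, and the line is the median of the list. The red cell genes centre on 3.16 in LT-HSC and 0.57 in MPP, and the platelet genes on -1.16 and -0.33.

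Markers of other cell types moved with genotype beside these genes. The 8 of 10 red cell precursor markers in the tables, hemoglobins included, summed to 3987 and 3120 CPM in LT-HSC KO against 691 and 506 CPM in LT-HSC WT, and to 977 and 863 CPM in MPP KO against 650.3 and 561 CPM in MPP WT, with none at 0 in any group. The 9 megakaryocyte markers summed to 323 and 279.6 CPM in LT-HSC KO against 846 and 726 CPM in LT-HSC WT, where Gp1ba, Gp6 and Tubb1 overlapped between genotypes. In MPP they summed to 101 and 84.8 CPM in KO against 123 and 104 CPM in WT. Itga2b carried most of the MPP sums, with 70.3 and 56.1 CPM in KO against 93.3 and 74.6 CPM in WT. Pf4 was higher in MPP KO, at 13.8 and 12.3 CPM against 9.47 and 7.65 CPM in MPP WT, and Gp1bb was nearly level. Mast cells, basophils and eosinophils also carry Gata1. In LT-HSC, 8 of their 13 markers summed to 17.9 and 20.9 CPM in KO against 11.9 and 8.24 CPM in WT, where Il5ra and Ms4a2 were at 0. Fcer1a alone of the 8 ran the other way there, at 0.187 and 0.593 CPM in KO against 7.66 and 4.22 CPM in WT. The sums were 269.7 and 259 CPM in MPP KO against 164 and 159 CPM in MPP WT. Among these MPP libraries, Cpa3 and Il5ra were lower in KO, and Ms4a2 and Fcer1a overlapped between genotypes. Mcpt8, Prss34, Epx and Prg2 were higher in MPP KO.

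For neutrophils and monocytes, 9 of 10 markers summed to 41.4 and 44.7 CPM in LT-HSC KO against 8.03 and 8.04 CPM in LT-HSC WT. Camp, Cd177, Ngp and S100a8 were at 0 in LT-HSC WT. The sums were 1569 and 1591 CPM in MPP KO against 809.7 and 809 CPM in MPP WT. Mpo carried most of them, with 1164 and 1201 CPM in MPP KO against 649 and 662 CPM in MPP WT. Elane followed with 349 and 339.6 CPM in MPP KO against 112 and 103 CPM in MPP WT. Ngp, S100a8 and Ltf were also higher in MPP KO, Camp was lower, and Csf1r, S100a9 and Cd177 overlapped between genotypes. Bone stroma and endothelium markers, 12 in LT-HSC and 10 in MPP, summed to 785 and 589 CPM in LT-HSC KO against 145 and 149.7 CPM in LT-HSC WT, where Bglap and Cxcl12 were at 0, and to 265 and 259 CPM in MPP KO against 289 and 284 CPM in MPP WT. In LT-HSC the collagen genes carried most of the summed difference, Col1a1 with 314 and 225 CPM in KO against 0.73 and 1.41 CPM in WT and Col1a2 with 258 and 175 CPM in KO against 21.9 and 19.5 CPM in WT. The endothelial marker Pecam1 ran the other way, at 55.6 and 59.9 CPM in LT-HSC KO against 70.3 and 74.4 CPM in LT-HSC WT, and Emcn was nearly level, at 29.9 and 32.8 CPM in KO against 30.8 and 34.2 CPM in WT. Markers of B and T cells summed to 69.3 and 72.5 CPM in LT-HSC KO against 107 and 109.7 CPM in LT-HSC WT, and to 557 and 564 CPM in MPP KO against 494 and 490.3 CPM in MPP WT. The part of these cell types in the changes of the 7 genes was not tested.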

How the data were processed

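The 8 libraries were made from poly(A) RNA and read from both ends. CASAVA, TopHat and the mm9 build are named in the submitters' processing notes; versions, read counter, annotation and strand setting were not given in sources used here. The authors deposited 1 table per population with raw counts per gene, their log2 fold change and mean log2 CPM, a likelihood ratio score, and a p-value with false discovery rate, per the file headers. Coordinates of genes are those of the deposited tables; promoters come from RefSeq, GRCm38.p6, and no coordinates were converted.

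The deposited counts were tested with edgeR 4.0.16 in R 4.3.3: filterByExpr, TMM scaling, quasi-likelihood test, Benjamini-Hochberg adjusted p under 0.05 over all genes of a fit, with the 4 libraries compared, or all 8 for the interaction and for steps between LT-HSC and MPP of unlike genotype. A standard error is the log2 fold change over the square root of its F statistic. CPM are counts scaled to the same library total; a prior count of 2 entered the likeness profiles only. Scripts were tested on simulated data.

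Genes were named by rule: all members, at most 6 called genes per list and population by size of fold change, the partners that a member binds, and the 5 nearest genes for Klf1 and 3 for each other member, without Gm or Rik models. Ikzf1, Etv6, Erg, Runx1 and Gypc beyond that rule, and the count ratios, were chosen after their values were seen. Members and lists were chosen with earlier results of these data known. Alternatives were DESeq2 1.42.0, its size factors, no filter, 1 fit of all libraries, the replicate number as a block, leaving out each library, and, chosen after seeing the data, subtraction of reads spread over gene spans. Of the list genes, Lyl1, Cbfa2t3, Spi1, Alas2, Ahsp and Clec1b were not analysed here, and some genes that the rule names are not reported here. No molecular identifiers are described, so exact intervals and the floor reflect counting error alone; 0 value columns were left unmatched.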

Additional observations from a re-analysis of the deposited data

Results flagged for a closer look

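Differences between populations in the KO over WT log2 fold change, given as that in LT-HSC minus that in MPP, passed the edgeR interaction test for Klf1 (2.61), Lmo2 (1.38), Epor (1.19) and Gata1 (0.74), and this is what singled them out. Klf1 passed in 13 of 13 alternatives, Gata1 in 8, and Lmo2 and Epor in 6 each.

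Among named red cell genes the same difference was 5.0 for Tspo2, fitted on 2 counts in each LT-HSC WT library, 4.14 for Trim10, 3.35 for Epb4.9, 3.28 for Epb4.2, 2.71 for Ermap, 2.59 for Ank1, 2.55 for Kel, 2.42 for Sphk1 and 1.68 for Rhag, each passing in 13 of 13 alternatives, and 1.1 for Add2, which passed in 7. Platelet genes had -2.62 for Gp1bb, -1.97 for Pf4 and -1.60 for Vwf, each passing in 13, and -1.70 for Treml1 and -1.15 for Itga2b, each passing in 7.

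Of the other transcription factors, Klf3 (1.44) and Fli1 (-0.99) passed in 13 alternatives, Meis1 (-0.70) in 10, Sox6 (0.91) and E2f4 (0.88) in 7 and E2f2 (0.54) in 5. The cofactors Lmo4 (-1.46) and Kdm1a (-0.75) passed in 13 and 11. In Epo receptor signalling, Socs2 (-1.70) passed in 13, Lyn (-0.73) in 7, Fam132b (2.53) in 6, Grb2 (-0.55) in 5 and Podxl (-0.76) in 4. Dixon's test for a library far from its group was not run, since it needs at least 4 libraries and each group here has 2.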

How the results depend on the processing

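In LT-HSC, the calls of Klf1, Epor and Lmo2 passed in 10 of 10 alternatives, at log2 fold changes of 3.46 to 3.98, 1.67 to 2.26 and 1.63 to 1.94, and that of Gata1 in 9. The labels give groups the same replicate numbers without saying that a number marks a shared batch; deviations of same-numbered libraries correlated at 0.38 to 0.55 over 16551 genes, a hint from the data that 2 pairs do not settle. With the number as a replicate block, 4009 genes were lower in LT-HSC KO; in MPP 3536 were higher and 3698 lower, with 3 members higher and 1 lower; the interaction gave 3632 and 3265, and LT-HSC WT against MPP WT 4038 and 3781. Under the block Tal1 (adjusted p = 0.000105) passed in LT-HSC, Epor (6.46e-08), Gfi1b and Nfe2 in MPP, and Tal1 (0.0109) in the interaction.

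With all 8 libraries in 1 fit, 3024 genes were lower in LT-HSC KO, and 352 higher and 148 lower in MPP KO; without a filter the MPP counts were 397 and 178. With reads over gene spans subtracted, 1097 genes were higher and 803 lower in LT-HSC KO, 936 higher in the interaction and 2319 higher in LT-HSC KO than in MPP KO. Leaving out 1 library gave, for higher and lower genes, 1946 to 4213 and 379 to 2543 in LT-HSC, 0 to 213 and 0 to 55 in MPP, 798 to 2521 and 334 to 1716 in the interaction, 1288 to 3372 and 1176 to 3697 between WT populations, and 3171 to 3829 and 2199 to 3084 between KO populations. Members called higher were then 3 to 4, 0 to 1, 1 to 4, 3 to 5 and 6 to 7 in these 5 comparisons, and 0 were lower.

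Values of genes below the threshold changed sign for Nfe2 in LT-HSC (0.09, reads over gene spans subtracted), and with 1 library left out for Mafg (-0.09 to 0.25) and Ldb1 (-0.10 to 0.19) in LT-HSC and Ldb1 (-0.08 to 0.18), Kdm1a (-0.09 to 0.02), Rcor1 (-0.06 to 0.01) and Jak2 (-0.02 to 0.13) in MPP. The cause of these differences was not tested, apart from fewer libraries in those that leave 1 out. Depth limits Lmo2 most, at 23 to 86 counts per library.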
